A study of Danio rerio with 8 samples.

Results

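Sharp start regions are places in the zebrafish genome where tags taken as the starts of capped RNAs fell within a few neighbouring bases. The deposited tag clusters came in 2 lists. List 1 was shared by the 4 libraries whose titles carry no number (replicate 1), and list 2 by the 4 whose titles end in 2 (replicate 2). Same-strand clusters that overlapped were merged across the lists. A merged region was taken as sharp when it held exactly 1 cluster of each list, with a width of at most 20 bases in list 1 and at most 8 in list 2. By this rule 1991 of 42130 merged regions were sharp, which is 8.44% of the 23602 regions with clusters of both lists. The rule used coordinates and no expression value.

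The libraries were made by cap analysis gene expression (CAGE), which captures RNAs by their 5′ cap and sequences the start, from total RNA of whole embryos. The embryos were jam3b-sa37, carriers of an allele of a gene for a junctional adhesion molecule, or wild type (WT). Ages were 12 or 16 hours post-fertilization (hpf), so the groups were sa37 at 12 hpf, sa37 at 16 hpf, WT at 12 hpf and WT at 16 hpf, with 2 libraries each. The labels give neither the zygosity of sa37 nor the number of embryos or clutches behind a library, and p-values therefore measure only the spread between these libraries. In bulk RNA of whole embryos, fewer cells of a type and less RNA per cell cannot be told apart. The clusters carry coordinates (danRer10, per the submitters' processing notes) but no gene names, so neither jam3b nor tissue markers were analysed here.

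Vertebrate start regions are commonly divided into sharp ones, where nearly all RNAs start at 1 or a few bases, and broad ones, where starts spread over a longer stretch. Sharp starts are known from promoters with a TATA box and from many genes with tissue-restricted expression, and also from ribosomal protein genes, whose transcripts begin in a run of pyrimidines. Broad starts are known from the CpG-rich promoters of widely expressed genes.

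Most sharp regions were narrower than the limits that defined them. Their median width was 4.0 bases in list 1 and 3.0 in list 2. Over all 19637 regions made of 1 cluster of each list it was 53.0 and 55.0. The rule selects on width, so it fixes that sharp regions are the narrower ones. In 604 sharp regions the list 2 cluster was 2 bases wide, and in 133 both clusters had identical coordinates. At the edge of the list 1 rule, 27 members had a width of 20 bases and a median level of 0.522 RPM (tags scaled to a total for each library). The 19 regions just outside it at 21 bases had 0.346 RPM. At the edge of the list 2 rule, 100 members had 8 bases and 1.96 RPM, and 132 regions just outside at 9 bases had 2.86 RPM. Weak members were narrower than strong ones. The 1101 members under 1 RPM had median widths of 3.0 bases in both lists, and held 412 of the 604 list 2 clusters of 2 bases. The 91 members with at least 30 RPM had medians of 7.0 bases in list 1 and 6.0 in list 2, nearer to the list 2 limit. The 5′ ends of the clusters of the lists were close, which the rule largely fixes, since it keeps only narrow clusters that overlap. In 481 sharp regions (24.2%) they were the same base, in 967 (48.6%) the list 2 end lay 1 base upstream of the list 1 end, and in 129 they were more than 5 bases apart.

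Most sharp regions were weak, and a few were among the strong regions of these libraries. The median level over the 8 libraries was 0.829 RPM, with quartiles of 0.384 and 2.59 and a highest mean of 1962 RPM. The 17646 other regions of 1 cluster per list had a median of 5.32 RPM, quartiles of 1.5 and 16.6, and a highest mean of 6409 RPM. The 91 sharp regions with at least 30 RPM held 88.4% of the summed level of all sharp regions, and the strongest 10 held 38.9%. In the single libraries, sharp regions took 3.67 to 5.04% of the RPM. This share was higher at 16 than at 12 hpf in each genotype and list. In list 1 it was 4.26% at 12 hpf and 4.83% at 16 hpf in sa37, and 4.16% and 5.04% in WT. In list 2 it was 3.67% and 4.02% in sa37, and 3.69% and 4.09% in WT. Sharp regions were listed at 0 in 35.0 to 42.3% of cases in the list 1 libraries and in 4.82 to 6.43% in the list 2 libraries, against 10.3 to 15.6% and 1.10 to 1.71% of the other single regions. List 1 gives no value between 0 and 0.51 RPM, so a 0 there means less than in list 2, which reaches down to 1 tag.

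The share of regions that were sharp was lower at higher levels, except at the top. It was 30.6% of the 2186 regions under 0.5 RPM, 17.9% from 0.5 to 1 RPM, 8.86% from 1 to 3, 4.68% from 3 to 10, 2.33% from 10 to 30 and 1.74% from 30 to 100 RPM. Among the 1168 regions with 100 RPM or more it was 3.77%, or 44 regions. Level and width thus moved together below 100 RPM, and the part of tag number in the width was not tested.

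Sharp regions lay more often on the plus strand than on the minus strand, 1230 against 761, and the imbalance grew with the level. From 30 to 100 RPM there were 43 plus-strand and 4 minus-strand members, and at 100 RPM or more there were 37 and 7. Regions of both lists as a whole were 49.5% and 46.3% plus-strand at those levels. The imbalance moved with the list 1 width. Among regions with 1 cluster per list and at least 30 RPM, the list 2 cluster was at most 8 bases wide in 81 of 1319 on the plus strand and in 89 of 1418 on the minus strand. The list 1 cluster of these was also within 20 bases in 80 of the 81 on the plus strand, but in 11 of the 89 on the minus strand. Its median width was 7.0 bases on the plus strand (quartiles 6.0 and 7.0) and 42.0 on the minus strand (quartiles 37.0 and 46.0). On the minus strand the list 1 cluster began a median of 38.0 bases upstream of the list 2 cluster, and on the plus strand 0 bases. Strong sharp regions as defined are therefore mostly plus-strand regions, and 78 minus-strand regions that were as narrow in list 2 were left out by their list 1 width.

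**Figure D1:**
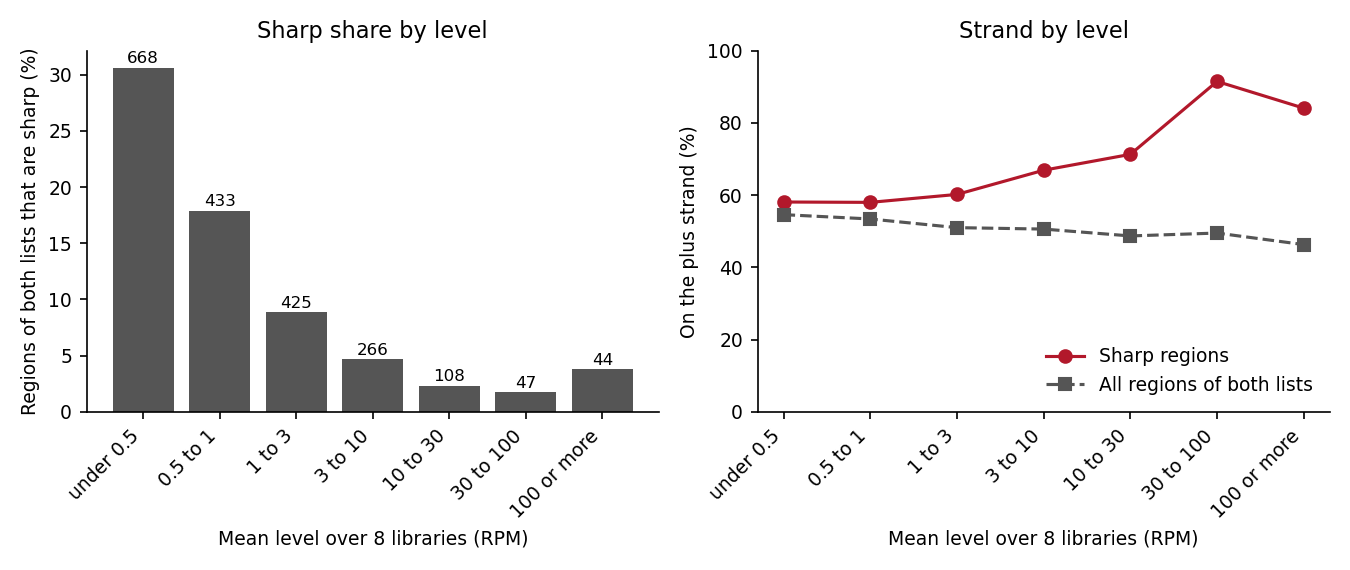
Left, share of the regions of both lists that were sharp (%), by mean level over the 8 libraries in RPM, with the number of sharp regions above each bar. Right, share on the plus strand (%) among sharp regions (circles) and among all regions of both lists (squares). The sharp share falls from 30.6% under 0.5 RPM to 1.74% at 30 to 100 RPM, while the plus-strand share of sharp regions reaches 91.5% there.

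**Figure D2:**
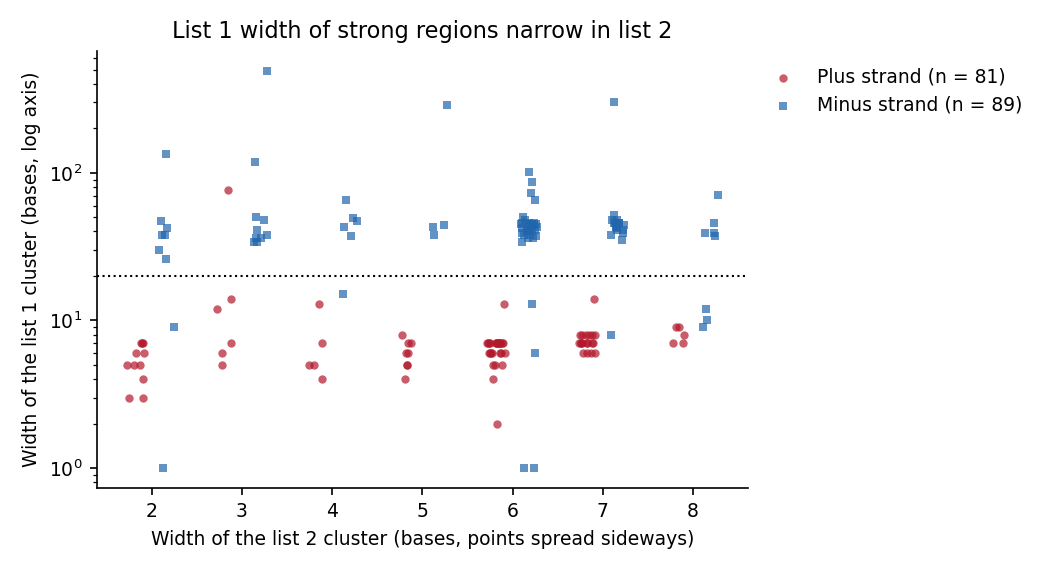
Width of the list 1 cluster (bases, log axis) against that of the list 2 cluster for regions of 1 cluster per list with at least 30 RPM and a list 2 width of at most 8 bases, with 81 plus-strand (circles) and 89 minus-strand (squares) regions. The dotted line is the list 1 limit of 20 bases, which 80 of the plus-strand and 11 of the minus-strand regions meet.

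The strongest 10 sharp regions had means between 1247 and 1962 RPM, and none of them was called between genotypes or stages in the test described below without a block. With the replicate number as a block, limma called some higher at 16 hpf averaged over genotypes (adjusted p of 0.0177 to 0.0402). They were chr3:16081243-16081255, chr14:51849962-51849971, chr16:31967198-31967205, chr20:54515510-54515517 and chr22:31091750-31091758. Of these, edgeR with the block called only the first (adjusted p = 0.0452). It also called chr25:34635829-34635842, lower at 16 hpf (adjusted p = 0.0242). The highest of the 10 was chr22:3139607-3139614 on the plus strand, with 2679.5 and 1189.5 RPM in sa37 at 12 hpf, 3060.4 and 1366 at 16 hpf, 2114 and 1139 in WT at 12 hpf and 2779.6 and 1368 at 16 hpf. The first value of each pair is replicate 1, and in this region it was above the second in each group, while sa37 and WT overlapped.

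The gap between the lists varied among the strong members. It was wider at chr25:34635829-34635842 on the minus strand, with 2284 and 702 RPM in sa37 at 12 hpf, 1818 and 567 in sa37 at 16 hpf, 2169.6 and 742 in WT at 12 hpf and 2047 and 594 in WT at 16 hpf. It was narrower at the following sites. At chr17:24597469-24597476 the values were 1219 and 1281 RPM in sa37 at 12 hpf, 1449.8 and 1473 at 16 hpf, 1373 and 1356 in WT at 12 hpf and 1765 and 1623 at 16 hpf. At chr25:34647305-34647315 on the minus strand they were 1293 and 1546, 1134 and 1483, 1476 and 1795, and 1450.0 and 1792 in the same order of groups. Over both stages the genotypes overlapped at each of these sites, but at chr17:24597469-24597476 sa37 was lower within each stage. At chr3:16081243-16081255 list 2 was the higher one, with 1093 and 2025 RPM in sa37 at 12 hpf. The other strong members were chr14:51849962-51849971, chr16:31967198-31967205, chr18:45784901-45784908, chr20:54515510-54515517 and chr22:31091750-31091758 on the plus strand. In each of the 10 the range of the sa37 libraries, over both stages and lists, overlapped that of the WT libraries. In library pairs of the same stage and replicate number, sa37 was lower in all 4 at chr17:24597469-24597476, chr20:54515510-54515517 and chr25:34647305-34647315. It was higher in all 4 at chr16:31967198-31967205, and at the others the pairs were mixed. None of the 10 was called between genotypes with the block.

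Large gaps between the lists were more common in sharp regions than in the other single regions, while typical gaps were alike. Of the 890 sharp regions that averaged 1 RPM or more, 57 (6.4%) were at least 4-fold apart between the means of the lists on the log2(RPM + 1) scale, against 212 of 14520 (1.46%) of the other single regions. Of the 57, 49 were higher in list 2 and 8 in list 1, and of the 212 it was 164 and 48. The median gap in either direction was 0.69 for the 890 and 0.68 for the 14520 on this scale. With its sign, list 2 minus list 1, the median was 0.54 and 0.63. As extremes picked after their values were seen, chr16:52030299-52030305 on the minus strand had 3.33 and 1069 RPM in sa37 at 12 hpf, 4.45 and 1255 in sa37 at 16 hpf, 5.18 and 1159 in WT at 12 hpf and 7.58 and 1459 in WT at 16 hpf. At chr21:33419757-33419764 on the plus strand the lists were the other way round, with 1102 and 4.29, 1268 and 5.32, 1011 and 5.87, and 1554 and 6.68 RPM in the same order. These separations followed the replicate number, which cannot be told apart from the cluster list.

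Sharp regions often had other start regions close by. The nearest region of both lists on the same strand was within 1000 bases for 686 of the 1991 (34.5%), against 2127 of the 17646 other single regions (12.1%). Among members with at least 30 RPM the share was 62.6%, against 17.4%. For the 10 strongest, this nearest region was 10 bases away at chr3:16081243-16081255, 15 at chr17:24597469-24597476 and 16 at chr16:31967198-31967205. It was 22 away at chr22:3139607-3139614, 31 at chr14:51849962-51849971 and 46 at chr22:31091750-31091758. At the other members of the 10 it was 495 to 2612 bases away. Whether such close regions are parts of 1 wider start area was not tested. A region at least 10 times stronger lay within 1000 bases upstream of 345 sharp regions (17.3%) and downstream of 200, against 2.70% and 0.737% of the other single regions. At 1 to 30 RPM, where levels are more alike, these shares were 20.9% and 8.64% of sharp regions against 1.97% and 0.446%. Starts that fall inside a wide cluster do not count as separate regions. The part of the width rule in these shares was not tested.

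A set of strong plus-strand members followed the level of a wider region upstream in all 8 libraries. The search for such pairs was chosen after the data were seen. For each region it took the same-strand regions 50 to 10000 bases away and asked whether one had a level within 0.5 on the log2 scale (1.41-fold) in every library. Of the 80 plus-strand sharp regions with at least 30 RPM, 28 (35.0%) had such a region upstream and 1 had one downstream. Among the other single regions of that level, 4 of 1239 on the plus strand and 32 of 1407 on the minus strand had one upstream, and 24 and 26 had one downstream. None of the 11 minus-strand sharp regions had one, whereas 26 of the 89 minus-strand regions that were at most 8 bases wide in list 2 did (29.2%). The upstream regions lay 455 to 4900 bases away, with a median of 1096, and 27 of the 28 were not sharp, with a median length of 40 bases.

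Of the 10 strongest sharp regions, 5 were in such a pair. The closest was chr14:51849962-51849971, with 1707 and 1216 RPM in sa37 at 12 hpf, 2371 and 1642 in sa37 at 16 hpf, 1243 and 1323 in WT at 12 hpf and 2158 and 1665 in WT at 16 hpf. The region 1785 bases upstream, chr14:51848156-51848177, had 1735 and 1235, 2379 and 1625, 1276 and 1343, and 2172 and 1654 RPM in the same order. The pair differed by at most 0.04 on the log2 scale in any library. At chr17:24597469-24597476 the largest difference from its upstream region, 683 bases away, was 0.06. At chr22:3139607-3139614 it was 0.17, over 2963 bases. The difference between the lists at this site was also present in the upstream region, which had 2482 and 1060.0 RPM in sa37 at 12 hpf. The choice of pairs fixes this, since their levels had to be alike in every library of both lists.

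The pairs spanned a wide range of levels, and the median over the 28 of the largest difference was 0.21. With a tolerance of 0.25 in place of 0.5, 15 of the 80 remained, and with a distance of at most 5000 bases 28 remained. With a minimum of 10 RPM in place of 30 RPM, 38 of 157 had a pair upstream and 1 downstream. Whether a member of a pair holds starts of its own was not tested, since the files give neither tag positions nor alignments.

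**Figure D3:**
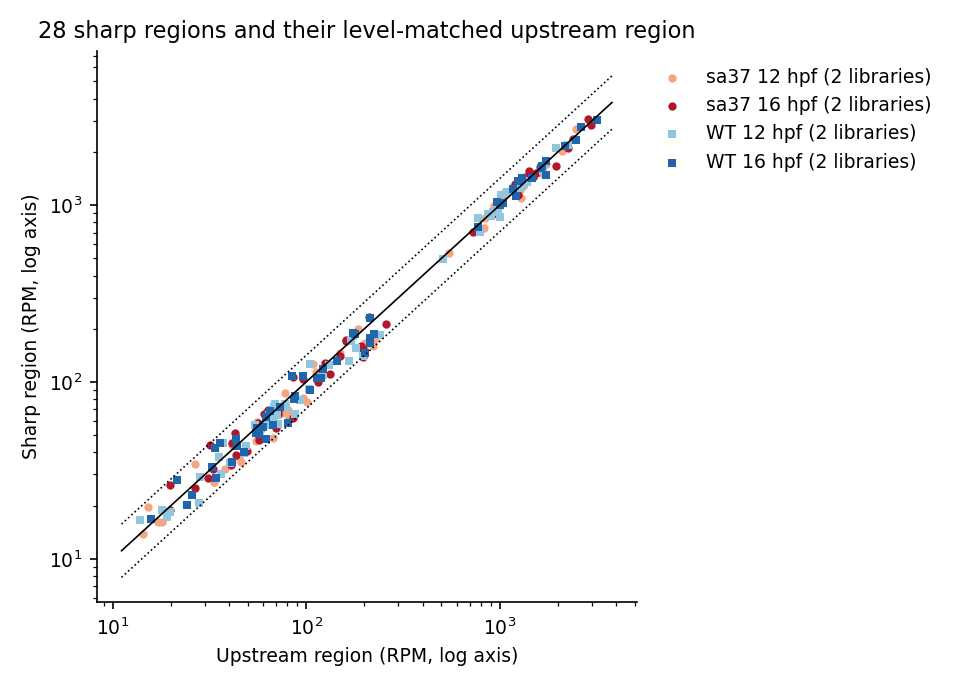
Level of 28 plus-strand sharp regions (RPM, log axis) against the level of their upstream region at the same level (RPM, log axis), with 1 point for each of the 8 libraries and region. The solid line marks equal levels and the dotted lines 0.5 on the log2 scale, inside which all points lie because the pairs were chosen so. The points run along the line over the whole range of levels in all 4 groups.

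Sharp regions were unevenly spread over chromosomes. They made up 13.0% of the regions of both lists on chromosome 25, 11.5% on chromosomes 7 and 22 and 11.0% on chromosome 14, against 8.44% overall and 6.04% on chromosome 9, which had the lowest share. Several lay in dense groups. In the 100 kb window chr25:34600001-34700000, 18 of 47 tested regions were sharp, of which 16 were on the minus strand. In chr7:6200001-6300000 it was 18 of 35, all on the minus strand, and in the next window, chr7:6300001-6400000, 11 of 26, again all minus. The 15 windows with at least 5 sharp tested regions held 119 of the 890.

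Of the 1991 sharp regions, 890 averaged 1 RPM or more and entered the test, among 19000 tested regions, and the 1101 weaker ones were not tested. The test was limma on log2(RPM + 1) over all 19000 regions, with Benjamini-Hochberg adjustment and a call at an adjusted p under 0.05. Differences are given on this log2(RPM + 1) scale, and each SE is from limma without the block, also beside a p with the block. This scale makes the change of weak regions look smaller, and where a group is at 0 the difference depends on the added 1. Libraries that share a replicate number deviated alike from their group means, so counts with the replicate number as a block stand beside those without it. Tags were simulated with list differences taken from the mean levels here, alike in all groups, and with an assumed spread. The changes put in were all 4-fold and between the genotypes. Most sharp regions called between genotypes with the block differed by less on the log2(RPM + 1) scale, and smaller changes were not simulated. On the simulated tags, limma with the block found most of the changed regions and limma without it found none of them. That is the case a block is made for. In the data limma without the block called 120 of all tested regions between genotypes averaged over stages and 357 between stages averaged over genotypes. A low count without the block does not show that few regions differed, but the simulation does not measure how many were missed.

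Between sa37 and WT, averaged over the stages, 15 of the 890 sharp regions were called without the block, 8 higher and 7 lower in sa37, against a background of 0.632% of all tested regions (0.384% higher and 0.247% lower). With the block 134 were called (15.1%), 80 higher and 54 lower, against a background of 7.36% (4.74% and 2.63%). On tags recovered from the RPM values, edgeR's test with the block found 73, 42 higher and 31 lower, against a background of 4.55% (2.45% and 2.09%), and 70 of these were also called by limma with the block. All 15 regions called without the block were among the 134. The sharp share called was thus above the background in each of these fits. At matched levels with the block it was 15.1% of sharp regions against 9.36% of all at 1 to 3 RPM, 18.4% against 8.84% at 3 to 10 RPM and 13.9% against 5.34% at 10 to 30 RPM. From 30 to 100 RPM it was 4.26% against 4.22%, and at 100 RPM or more 9.09% against 7.28%, which is 4 sharp regions. The median difference of sharp regions was 0.061, against 0.055 over all tested regions. Whichever library was left out, 0 to 4 regions were called without the block. With the block 80 to 123 were called, with the fewest without sa37 at 12 hpf replicate 1 (84) and sa37 at 16 hpf replicates 1 (81) and 2 (80).

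Most of the genotype calls were of weak regions. The 80 called higher with the block had a median mean level of 3.20 RPM and a median difference of 1.16, and 16 of them were at least 4-fold apart on this scale. The 54 called lower had a median level of 2.75 RPM and a median difference of -1.29, and 10 were at least 4-fold apart. All 4 stage-matched and replicate-matched pairs had the same sign in 74 of the 80 and in 47 of the 54.

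The strongest member that differed was chr25:34638425-34638435 on the minus strand. It had 17.1 and 0 RPM in sa37 at 12 hpf and 14.0 and 0 in sa37 at 16 hpf, against 2696 and 1326 in WT at 12 hpf and 2952 and 985 in WT at 16 hpf. All WT libraries were thus near or above 1000 RPM and no sa37 library exceeded 17.1. The difference was -8.79 ± 1.18 (SE, limma adjusted p = 0.0371 without the block and 0.000621 with it). Its neighbours on the same strand did not show the same pattern throughout. The sharp region 35 bases away, chr25:34638387-34638390, had 8.88 and 7.04 RPM in sa37 at 12 hpf, 8.21 and 3.90 in sa37 at 16 hpf, 3.29 and 4.24 in WT at 12 hpf and 0 and 4.20 in WT at 16 hpf. A cluster of list 2 alone between the sharp ones, chr25:34638411-34638415, had 0 and 0.042 RPM in the sa37 libraries against 9.81 and 7.36 in the WT libraries at 12 and 16 hpf. The strong sharp region chr25:34635829-34635842, in the same 100 kb window, had 1343 ± 842 RPM in sa37 and 1388 ± 835 in WT (SD, n = 4 each), and the genotypes overlapped.

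The lowest adjusted p without the block in the averaged genotype comparison was at chr1:19162502-19162508 on the plus strand. It had 1.54 and 2.00 RPM in sa37 at 12 hpf and 5.09 and 6.44 in sa37 at 16 hpf, against 21.6 and 22.7 in WT at 12 hpf and 32.2 and 34.5 in WT at 16 hpf. The genotypes did not overlap at either stage. The mean was 7.37-fold lower in sa37 and the fitted difference was -2.71 ± 0.22 (SE, limma adjusted p = 0.00669 without the block and 9.53e-05 with it), and it was also called at 12 hpf alone. The nearest same-strand region, chr1:19156224-19156246, which lies 6256 bases upstream and is wider, had 0.850 and 1.49 RPM in sa37 at 12 hpf and 2.25 and 2.91 in sa37 at 16 hpf, against 21.5 and 23.1 in WT at 12 hpf and 32.5 and 35.0 in WT at 16 hpf. In the WT libraries the levels of both were nearly equal.

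Of the 5 other regions called lower without the block, 4 were listed at 0 in all 4 sa37 libraries. At chr9:9374904-9374916 the WT libraries had 5.49 and 8.36 RPM at 12 hpf and 2.39 and 3.32 at 16 hpf (difference -2.45 ± 0.24, SE, limma adjusted p = 0.0118). At chr5:4230430-4230437 the WT libraries had 1.65 and 2.40 RPM at 12 hpf and 4.10 and 3.57 at 16 hpf (difference -1.93 ± 0.22, SE, limma adjusted p = 0.018). The same held at chr5:1684895-1684904 and at chr22:25221368-25221375, with WT values between 0.841 and 11.3 RPM. Called too was chr17:49980591-49980598, with 0 to 0.172 RPM in sa37 against 1.51 to 2.90 RPM in WT.

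Higher in sa37 was chr15:37689125-37689142 on the plus strand, with 10.8 and 20 RPM in sa37 at 12 hpf and 12.9 and 27.1 in sa37 at 16 hpf, against 1.65 and 0 in WT at 12 hpf and 0 and 0.042 in WT at 16 hpf. The genotypes were far apart at both stages, and the difference was 3.77 ± 0.42 (SE, limma adjusted p = 0.018 without the block and 0.00376 with it). At chr23:6961470-6961474 sa37 had 5.38 and 14.0 RPM at 12 hpf and 3.35 and 4.32 at 16 hpf, against 0 to 0.171 RPM in WT (difference 2.68 ± 0.32, SE, limma adjusted p = 0.0234). At chr6:55389919-55389928 sa37 had 3.32 to 9.31 RPM against 0 to 0.550 RPM in WT (difference 2.50 ± 0.26, SE, limma adjusted p = 0.015). The 4 other regions called higher that the naming rule took were chr3:49766077-49766082, KN150631.1:17949-17953, chr9:14952915-14952921 and chr4:53260170-53260174, with differences of 1.61 to 2.46 and WT values of at most 0.343 RPM. chr4:53260170-53260174 was not called by edgeR with the block (adjusted p = 0.0557).

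The rule also took members that were called with the block only. Among these, chr1:16239862-16239865 was listed at 0 in all sa37 libraries and had 31.9 and 8.61 RPM in WT at 12 hpf and 23.9 and 3.15 in WT at 16 hpf (difference -3.75 ± 0.64, SE, limma adjusted p = 0.0856 without the block and 0.00644 with it). At chr16:35603-35608 sa37 had 5.94 to 28.1 RPM against 0 to 2.20 RPM in WT (difference 2.79 ± 0.42, SE, limma adjusted p = 0.0518 without the block and 0.00395 with it). The others were chr24:4591418-4591426 and chr3:21462323-21462330, with differences of 1.62 and 2.05, and chr25:34632507-34632517 and chr21:33677797-33677805, with -2.37 and -1.65. Of these 4, edgeR with the block did not call chr3:21462323-21462330 (adjusted p = 0.0831).

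**Figure D4:**
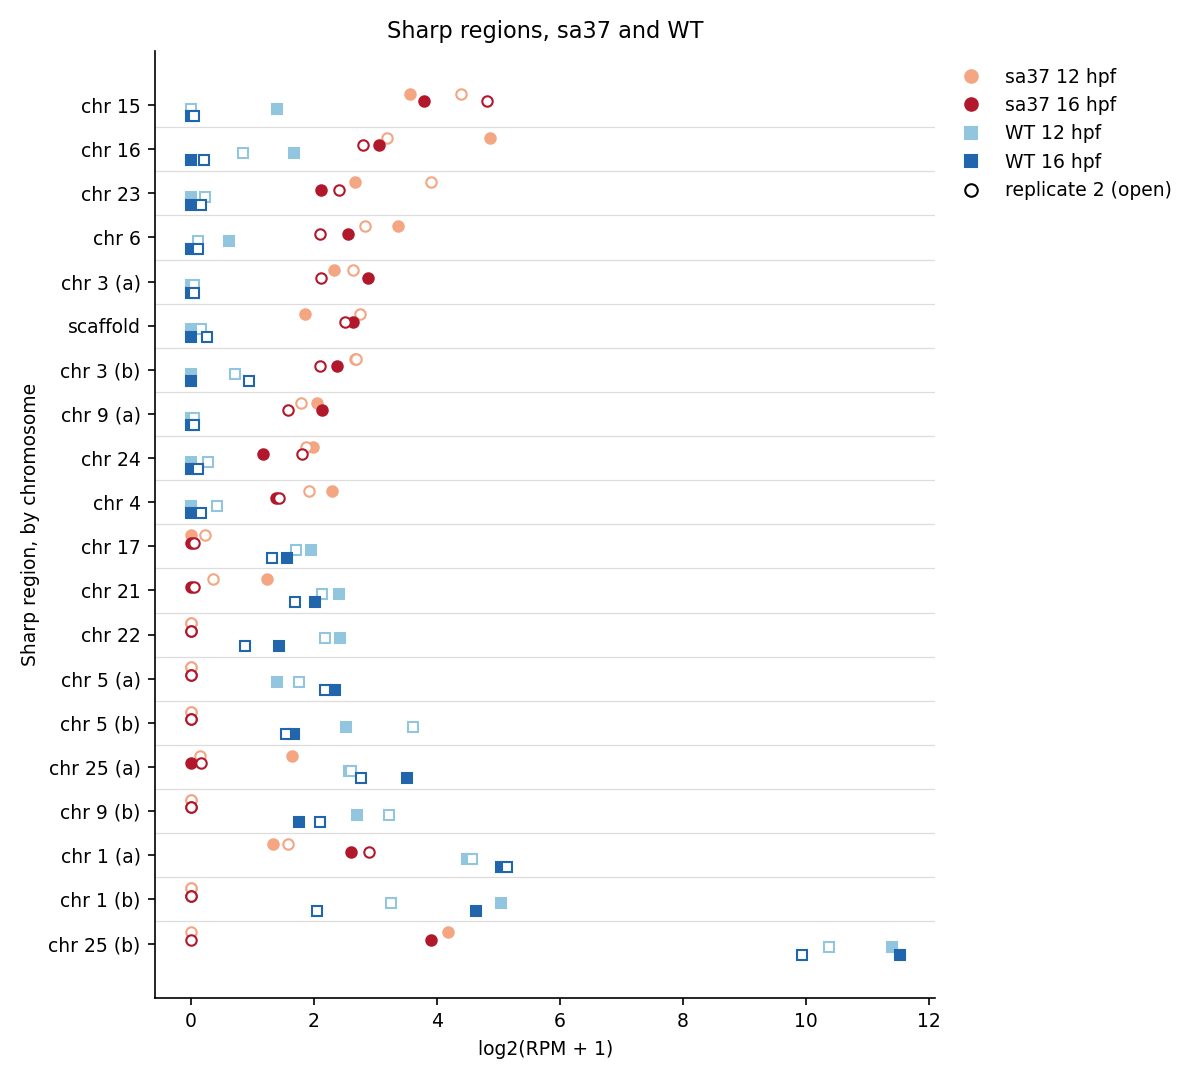
Level of the 20 sharp regions named for the genotype comparison (log2(RPM + 1)), 1 row per region with its chromosome, from the largest positive to the largest negative difference. Circles are sa37 and squares WT, light for 12 hpf and dark for 16 hpf, filled for replicate 1 and open for replicate 2. In every row the 4 sa37 libraries lie on one side of the 4 WT libraries, which the choice of rows by their difference favours, and chr 25 (b) is the region with 985 to 2952 RPM in WT.

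At the single stages few regions were called without the block. At 12 hpf it was 1 sharp region, lower in sa37, against a background of 0.10% of all tested regions (0.0632% higher and 0.0368% lower). With the block it was 67, 34 higher and 33 lower, against 2.87% (1.61% and 1.26%). At 16 hpf it was 1, higher in sa37, against a background of 0.0895% (0.0579% and 0.0316%), and with the block 56, 36 higher and 20 lower, against 2.13% (1.37% and 0.758%). Under quantile normalization with the block the 16 hpf calls were 37, 20 higher and 17 lower, against 1.67% (0.868% and 0.80%), so the share higher was 54.1% in place of 64.3%. With the block 34 regions passed at 12 hpf and at 16 hpf, each with 1 sign, which is 50.7% of the calls at 12 hpf and 60.7% of those at 16 hpf. Over all tested regions it was 269, or 49.3% and 66.6%. Without the block, 0 were called at either stage in limma once any of the 8 libraries was left out, while 69 to 82 at 12 hpf and 55 to 80 at 16 hpf had an unadjusted p under 0.05.

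The region called at 16 hpf without the block was chr2:31731273-31731283 on the minus strand. It had 0 and 0.057 RPM in sa37 at 12 hpf and 17.6 and 31.2 in sa37 at 16 hpf, and it was listed at 0 in all 4 WT libraries. Of the 8 libraries, those of sa37 at 16 hpf thus stood apart. Its neighbours on the strand had smaller values of the same shape, with 1.97 and 1.91 RPM in sa37 at 16 hpf at chr2:31731144-31731164 and 0.750 and 3.24 RPM at chr2:31731345-31731348, and at most 0.084 RPM elsewhere. edgeR with the block did not call it between genotypes averaged over stages (adjusted p = 0.0696). Its interaction between genotype and stage was 4.57 ± 0.51 (SE, limma adjusted p = 1 without the block and 0.0808 with it). Across the 890 members the interaction gave 0 calls in limma without and with the block and 0 in edgeR with the block, while DESeq2 called 1. The next lowest interaction p was at chr5:835176-835185, with 0 RPM in sa37 at 12 hpf and 0 and 0.083 in sa37 at 16 hpf, against 0 and 1.03 in WT at 12 hpf and 6.85 and 10.8 in WT at 16 hpf (interaction -2.70 ± 0.61, SE, limma adjusted p = 1 without the block and 0.67 with it). Counted by an unadjusted p under 0.05 there were 14 of 890 without the block and 77 with it, against 46 and 872 of the 19000 regions, and 0 of all regions were called in limma (0%).

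Several genotype calls lay in the dense groups on chromosome 7. With the block, 5 of the 18 sharp regions in chr7:6200001-6300000 and 4 of the 11 in chr7:6300001-6400000 were called. The share called with the block was 15.1% over all sharp regions and 7.36% over all tested regions. Of the 9 called in these windows, 8 were lower in sa37. None was called without the block. The strongest, chr7:6215202-6215211, had 609 and 184 RPM in sa37 at 12 hpf and 513 and 155 in sa37 at 16 hpf, against 1343 and 404 in WT at 12 hpf and 935 and 308 in WT at 16 hpf. Within each list and stage sa37 was the lower one, but the lists differed more than the genotypes (difference -1.03 ± 0.68, SE, limma adjusted p = 1 without the block and 0.00285 with it). The exception was chr7:6228272-6228276, with 7.43 and 39.9 RPM in sa37 at 12 hpf and 7.11 and 19.6 in sa37 at 16 hpf, against 1.25 and 6.90 in WT at 12 hpf and 1.04 and 5.76 in WT at 16 hpf. Of the other windows with at least 5 sharp tested regions, chr14:46600001-46700000 had 3 of 6 called with the block. In chr25:34500001-34600000 it was 2 of 8, in chr25:34600001-34700000 3 of 18, and at most 1 in each of the rest. The chromosome 7 windows were chosen after their values were seen. Calls among their other tested regions were not counted, so whether the calls are particular to sharp regions there is not known.

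Between the stages, averaged over the genotypes, 30 sharp regions were called without the block, 27 higher and 3 lower at 16 hpf, against a background of 1.88% (1.51% higher and 0.374% lower). With the block 272 were called (30.6%), 154 higher and 118 lower, against a background of 27.9% (20.2% and 7.73%), and all 30 were among them. In edgeR with the block it was 163 (18.3%), 85 higher and 78 lower, against a background of 21.3% (11.3% and 9.96%). The sharp share, 3.37% without the block, was thus above the background in both limma fits and below it in edgeR. At matched levels with the block the sharp and overall shares were 28.7% and 26.5% at 1 to 3 RPM, 33.1% and 32.4% at 3 to 10 RPM, and 28.7% and 26.9% at 10 to 30 RPM. From 30 to 100 RPM they were 34.0% and 23.6%, and at 100 RPM or more 34.1% and 25.3%, from 16 and 15 sharp regions called. Whichever library was left out, 3 to 10 regions were called without the block, and 137 to 247 with it, with the fewest without sa37 at 16 hpf replicate 1 (137) and WT at 16 hpf replicate 1 (180).

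The balance of direction at 16 hpf depended on the fit and the scaling. Of the regions called by limma with the block, 56.6% of the sharp ones and 72.3% of all were higher at 16 hpf. In limma without the block the order was reversed, with 90.0% of the 30 sharp calls and 80.1% of all calls higher. In edgeR with the block the shares were close, at 52.1% and 53.2%. Under quantile normalization with the block 284 sharp regions were called, 112 higher and 172 lower, which is 39.4% higher, against 52.1% over all called regions and a background of 27.1% (14.1% higher and 13.0% lower). The median difference of sharp regions was -0.011 with 0.085 over all tested regions, and -0.161 with -0.052 under quantile normalization. On the recovered tags in edgeR without the block it was -0.165 with -0.036. The median of sharp regions was below that of all regions in each of these scalings, while the median of all regions changed sign. The summed share of the RPM in sharp regions, given above, was higher at 16 than at 12 hpf in each genotype and list.

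The clearest stage difference was at chr4:43029118-43029121 on the minus strand, a region 3 bases wide in list 1 and 2 in list 2. It had 41.8 and 27.5 RPM in sa37 at 16 hpf and 34.4 and 46.0 in WT at 16 hpf, against 0 and 0.286 in sa37 at 12 hpf and 0 and 0.043 in WT at 12 hpf. Both genotypes were alike at each stage, and the stages were far apart (difference 5.13 ± 0.25, SE, limma adjusted p = 0.00159 without the block and 7.67e-05 with it). Its nearest same-strand region was 119417 bases away.

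Other regions were close to 0 at 12 hpf in both genotypes. At chr15:23711702-23711710 all 4 libraries at 12 hpf were listed at 0, and those at 16 hpf had 12.2 and 17.4 RPM in sa37 and 5.51 and 19.5 in WT (difference 3.74 ± 0.39, SE, limma adjusted p = 0.0113). At chr6:15526550-15526557 they were also listed at 0, and at 16 hpf sa37 had 5.72 and 7.14 RPM and WT 4.83 and 8.74 (difference 2.90 ± 0.25, SE, limma adjusted p = 0.00775). At chr17:31642695-31642704 the values at 16 hpf were 8.21 to 21.3 RPM, against 0 to 0.573 at 12 hpf. At chr12:3098745-3098753 they were 18 and 14.0 RPM in sa37 and 6.42 and 11.7 in WT, against 0 to 0.172 at 12 hpf, so the genotypes did not overlap at 16 hpf. At chr5:36237666-36237671 they were 8.44 and 9.01 RPM in sa37 and 6.36 and 7.78 in WT, against 0 to 0.171, so the genotypes did not overlap there either. The last 2 were also called between stages in sa37 alone, but not between genotypes at 16 hpf in limma without or with the block. None of these 5 regions, nor the one on chromosome 4, had another same-strand region of both lists within 10000 bases.

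Further called members were also higher at 16 hpf. Of those given here with their values, all but chr17:23280808-23280815 had genotypes that did not overlap at that stage, with 2 libraries each. Limma without the block called none of them between genotypes at 16 hpf. With the block it called chr25:34135377-34135390 (adjusted p = 0.0455) and chr14:6742210-6742217 (adjusted p = 0.0376). At chr23:22273914-22273921 the values at 16 hpf were 3.01 and 2.33 RPM in sa37 and 4.71 and 9.12 in WT, against 0 to 0.115 RPM at 12 hpf (difference 2.36 ± 0.26, SE, limma adjusted p = 0.0134). At chr25:34135377-34135390 they were 3.76 and 4.07 in sa37 and 0.980 and 1.85 in WT, and all libraries at 12 hpf were listed at 0 (difference 1.77 ± 0.23, SE, limma adjusted p = 0.0188). Present at both stages were chr8:19636564-19636571, with 8.20 to 9.92 RPM at 16 hpf against 1.5 to 3.21 RPM at 12 hpf, and chr8:17042975-17042983, with 6.22 to 11.3 RPM against 1.5 to 2.12 RPM. Their means were 3.76-fold and 4.53-fold higher at 16 hpf. At chr17:23280808-23280815 the levels at 16 hpf were 10.7 to 23.0 RPM, against 0 to 2.74 RPM at 12 hpf. At chr14:6742210-6742217 they were 2.66 and 2.87 RPM in sa37 and 13.0 and 7.82 in WT at 16 hpf, against 0 to 1.73 RPM at 12 hpf. With the block this region was also called lower in sa37 averaged over stages (limma adjusted p = 0.0093). The remaining higher calls without the block had differences between 1.42 and 2.58. Some of these had genotypes that overlapped at 16 hpf, and others did not.

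Over all 1991 sharp regions, 23 (1.16%) had at least 1 RPM in all 4 libraries at 16 hpf and under 0.5 RPM in all 4 at 12 hpf, and 3 (0.151%) were the other way round. Among the 17646 other single regions the counts were 75 (0.425%) and 13 (0.0737%). By genotype the same criterion was met by 7 sharp regions with signal in sa37 alone and 7 in WT alone (0.352% each), against 61 (0.346%) and 31 (0.176%) of the other single regions. These counts are descriptions without a test, and a weak region can miss the criterion by counting error.

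Lower at 16 hpf was chr25:352992-353002 on the minus strand, with 1.10 and 3.40 RPM in sa37 and 2.20 and 1.39 in WT at 16 hpf, against 30.9 and 26.0 in sa37 and 54.4 and 31.0 in WT at 12 hpf. The stages did not overlap, and the mean was 17.6-fold lower at 16 hpf (difference -3.60 ± 0.34, SE, limma adjusted p = 0.00952 without the block and 0.00053 with it). At chr2:15082747-15082755 all libraries at 16 hpf were at most 0.208 RPM, against 16.7 and 13.0 in sa37 and 21.4 and 2.91 in WT at 12 hpf (difference -3.52 ± 0.53, SE, limma adjusted p = 0.0287). At chr18:7633020-7633024 they were 0.457 to 1.10 RPM against 3.84 to 12.1 (difference -2.20 ± 0.23, SE, limma adjusted p = 0.0113).

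A strong member called lower at 16 hpf with the block only was chr4:70123231-70123240 on the minus strand. It had 314 and 333 RPM in sa37 and 145 and 131 in WT at 16 hpf, against 676 and 609 in sa37 and 429.9 and 305 in WT at 12 hpf (difference -1.19 ± 0.23, SE, limma adjusted p = 0.0632 without the block and 0.00127 with it). In both genotypes the level at 16 hpf was the lower one, and in each list and stage sa37 was above WT. The rule further took chr9:8393904-8393912, chr18:1620952-1620959, chr19:42674928-42674933 and chr5:68036505-68036510, with differences of -1.31, -1.88, -1.70 and -1.04 that were called with the block only.

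Of the paired members described above, chr7:25643894-25643902 was called higher at 16 hpf. It had 173 and 232 RPM in sa37 and 189 and 230.0 in WT at 16 hpf, against 27.3 and 57.1 in sa37 and 64.8 and 60.8 in WT at 12 hpf (difference 2.01 ± 0.30, SE, limma adjusted p = 0.0276). The mean was 3.92-fold higher at 16 hpf. Its upstream region, 1825 bases away, had 159.9 and 212 RPM in sa37 and 175 and 215 in WT at 16 hpf, against 33.3 and 61.0 in sa37 and 64.5 and 62.7 in WT at 12 hpf. The pairs were chosen for alike levels in every library, so this likeness is fixed by the choice. With the block, 11 of the 154 members called higher at 16 hpf had such an upstream region, and 0 of the 118 called lower and 0 of the 134 called between genotypes had one. Such regions were found upstream of 35.0% of plus-strand sharp regions at 30 RPM or more, against 1.61% at 1 to 10 RPM. Of the genotype calls, 2 were at 30 to 100 RPM and 4 at 100 RPM or more, against 16 and 15 of the stage calls. The counts thus cannot be told apart from level.

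**Figure D5:**
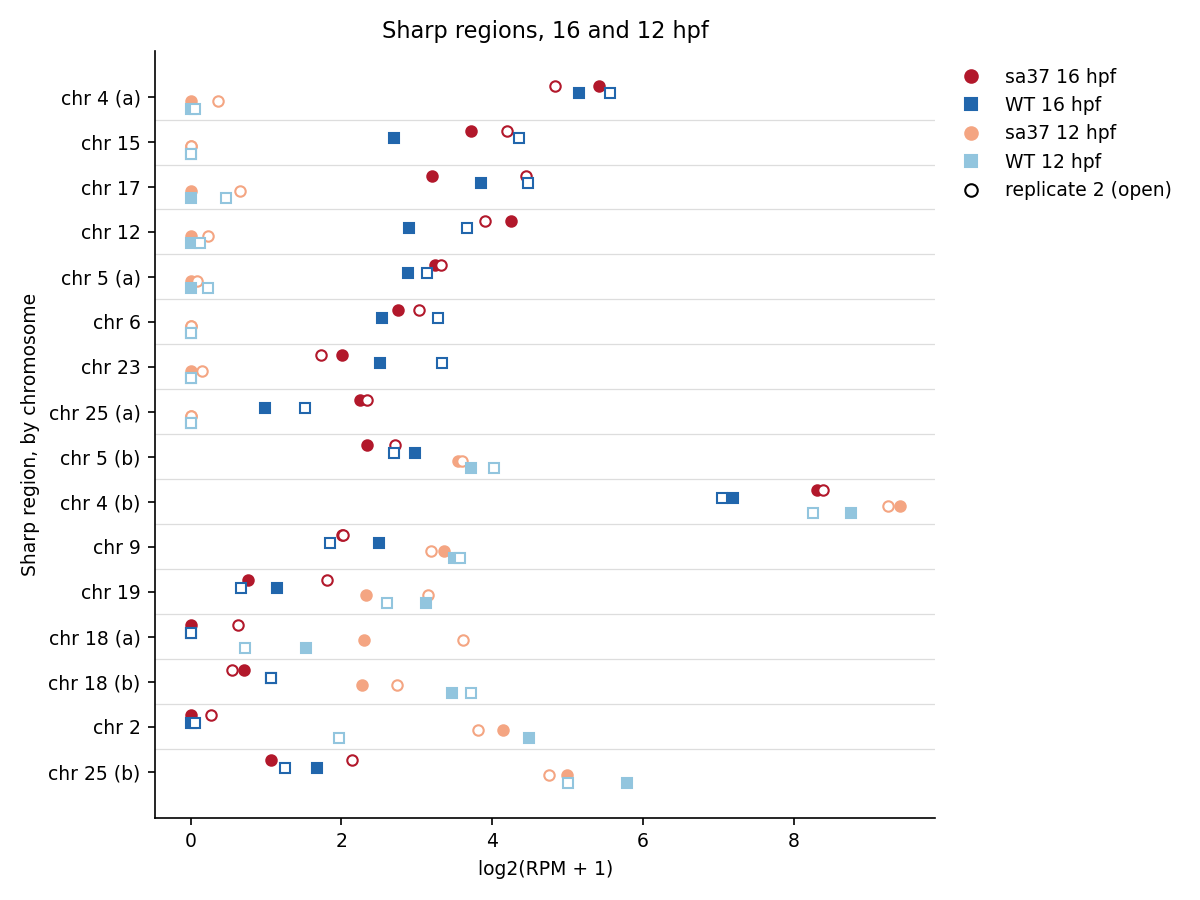
Level of the 16 sharp regions named for the stage comparison (log2(RPM + 1)), 1 row per region with its chromosome, from the largest positive to the largest negative difference. Dark symbols are 16 hpf and light ones 12 hpf, circles sa37 and squares WT, filled for replicate 1 and open for replicate 2. The upper 8 rows lie between 0 and 0.573 RPM at 12 hpf, and in the lower 8 each genotype has its lower values at 16 hpf.

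Within the genotypes the stage calls were again few without the block. In sa37 4 sharp regions were called, all higher at 16 hpf, against a background of 0.10%, which was higher throughout. With the block it was 130, 88 higher and 42 lower, against 14.3% (11.5% and 2.84%). In WT 1 was called, higher at 16 hpf, against a background of 0.0421% (0.0368% higher and 0.00526% lower), and with the block 143, 82 higher and 61 lower, against 13.8% (9.81% and 4.03%). The shares higher of the block calls, 67.7% in sa37 and 57.3% in WT, were 49.6% and 46.4% under quantile normalization. Backgrounds were then 11.9% in sa37 (7.23% and 4.65%) and 12.8% in WT (7.47% and 5.36%). With the block 81 regions passed in sa37 and in WT, each with 1 sign, which is 62.3% of the calls in sa37 and 56.6% of those in WT. Over all tested regions it was 1802, or 66.3% and 68.5%.

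Differences of at least 2-fold were also counted within each list, without a test. Between sa37 and WT averaged over stages, 146 sharp regions passed this size in list 1 and 136 in list 2. Of these, 80 (8.99% of the 890) passed in both lists in the same direction, 43 higher and 37 lower, and 1 passed in opposite directions. Over all tested regions 459 (2.42%) passed in both lists with 1 sign and 16 with opposite signs. Between the stages 160 sharp regions passed in list 1 and 102 in list 2, and 80 (8.99%) passed in both in the same direction, 58 higher and 22 lower at 16 hpf, against 1167 (6.14%) of all tested regions. Each list held 1 library of every group. These shares were not matched for level, and tested sharp regions had a median of 3.22 RPM against 8.17 RPM over all tested regions.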

How the data were processed

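CAGE tag clusters of 8 libraries were used as deposited by the authors, 1 value per cluster and library. The unit is RPM, as read from the deposited values. Reads were aligned to danRer10 with BWA and HISAT2, per the submitters' processing notes. The clustering method is not given in the sources used here, and neither are the totals behind the RPM. Summed over all rows, with repeated rows counted, the values of a library came to 999997.9 to 1000001.9 in list 2. In list 1 the sums were 936556.0 to 945905.3. Coordinates are printed as in the files, which do not say whether starts count from 0 or 1. Repeated rows (412 in list 1, 796 in list 2) were dropped, same-strand clusters that shared 1 base or more were joined, with ends read as exclusive, and values were summed per region. Each list came with its own scaling, and each comparison has both arms in each list.

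Regions of both lists averaging 1 RPM or more were tested with limma 3.58.1 (R 4.3.3) on log2(RPM + 1), with 4 group means, all 8 libraries, two-sided p-values and Benjamini-Hochberg adjustment over 19000 regions. The design foresaw edgeR for counts, and limma was used because the deposited unit is RPM. The replicate number is in the titles and marks the cluster list. Replicate differences correlated between groups with r of 0.68 to 0.831 over all tested regions and 0.65 to 0.798 over sharp ones, so a replicate block was fitted too. Values were whole multiples of one step, within rounding, in 100.0% of cases in every library, giving 10662458 to 15830713 tags in list 1 libraries and 16938015 to 23300915 in list 2 libraries. In list 1 the smallest value was 6 to 9 tags, so the step there was found by search. The recovered tags were tested with edgeR 4.0.16 and DESeq2 1.42.0 as alternatives. Precision is limited by 2 libraries per group and, for weak regions, by tag number. A floor of 3 tags is 0.173 to 0.256 RPM in list 1 and 0.125 to 0.172 RPM in list 2 and covers counting error only, as the tags carry no molecular identifiers.

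The members, lists and tests were chosen with earlier results of these data known. Regions were named by rule: the 10 strongest, up to 10 in each direction between genotypes and 8 between stages with the lowest p among called regions in which all 4 matched library pairs had the same sign, all called without the block, and the 2 with the lowest interaction p. Others are said to be chosen after their values were seen. Both limma fits were tested on simulated data with 4-fold changes between genotypes. Where the simulated lists did not differ, both found most of the changed regions. Where they differed by the list means of the data, alike in all groups, only the fit with the block did. edgeR and DESeq2 were not tested in this way. No genome or annotation of this build was used here, so promoter sequences, motifs and gene names were not analysed.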

Additional observations from a re-analysis of the deposited data

Results flagged for a closer look

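At chr12:25796500-25796507 on the minus strand, a sharp region called higher at 16 hpf, the difference between sa37 and WT was negative in both lists at 12 hpf and positive in both at 16 hpf. It had 0 and 0.859 RPM in sa37 at 12 hpf and 6.88 and 15.4 in sa37 at 16 hpf, against 0.94 and 1.07 in WT at 12 hpf and 4.77 and 11.9 in WT at 16 hpf. The difference was -0.56 at 12 hpf and 0.40 at 16 hpf, an interaction of 0.95. Its adjusted p in limma was 1, or 0.985 when the block was fitted, so the interaction was not called. A reversal of this kind in all pairs is what singled the region out.

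Narrow clusters held by a single list were outside the comparisons. Among 2802 list 1 clusters of at most 20 bases with no list 2 cluster, 5 had at least 5 RPM in both WT libraries and under 0.5 RPM in both sa37 libraries, and 0 were the other way round. Among 8809 list 2 clusters of at most 8 bases with no list 1 cluster, 1 had this pattern in WT and 0 in sa37. With 1 library per group in a list these counts have no test.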

How the results depend on the processing

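The counts of called sharp regions changed with several settings, the replicate block among them. The main counts, in limma without the block, were 1 and 1 for sa37 against WT at the single stages (12 hpf, then 16 hpf) and 15 for both stages averaged, and 1 for 16 against 12 hpf in WT, 4 in sa37 and 30 for both genotypes averaged, and every list of 6 counts here keeps that order. With the replicate block they were 67, 56, 134, 143, 130 and 272. With quantile normalization they were 8, 3, 29, 22, 21 and 76, and with both changes 59, 37, 129, 138, 131 and 284. A pseudocount of 0.1 gave 8 and 7 at the single stages and 4 for the stage comparison in WT, with the other counts within 1.5 times, and 21, 17, 57, 56, 64 and 152 with the block. Without the filter on the mean level, all counts stayed within 1.5 times. Widths of at most 15 and 6 gave 54, 42, 108, 106, 95 and 212 with the block, and without it 0 at 16 hpf, 9 averaged over stages and 2 for the stage comparison in sa37. Widths of at most 30 and 12 gave 83, 74, 171, 208, 208 and 389 with the block, and without it 5 and 4 at the single stages and 47 for the averaged stage comparison.

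On recovered tags, edgeR gave 0, 0, 5, 0, 0 and 28, and the same first 5 counts with DESeq2 size factors, then 30. At an unadjusted p under 0.05 it had 67, 60, 108, 88, 84 and 143. edgeR with the block gave 28, 20, 73, 69, 64 and 163, and DESeq2 gave 38, 33, 67, 50, 49 and 95, with 1 interaction call. Leaving out 1 library at a time gave 0, 0, 0 to 4, 0, 0 to 1 and 3 to 10 without the block, and 15 to 66, 9 to 45, 80 to 123, 50 to 125, 32 to 126 and 137 to 247 with it. Where it left a group with 1 library, that library was assumed to vary like the other groups. The interaction count was 0 in all settings other than DESeq2. What caused the shifts was not tested, beyond the smaller number of libraries or members that a setting itself makes.

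The replicate number marks the cluster list and its scaling, so the block takes up all of these, and they cannot be told apart. Since each list holds 1 library of every group, in limma on all 8 libraries the block cannot change a fitted difference, only its error. In edgeR the fitted differences did change. There the median of sharp regions between stages averaged over genotypes was -0.165 without the block and -0.156 with it. The median level of sharp regions was 0.829 RPM, 0.786 and 0.916 RPM under the other widths and 3.22 RPM over the 890 tested members. Widths of clusters depend on a clustering method that is not given, and weak members rest on few tags. The lists of genes and promoter motifs that were planned were not run, as no genome or annotation of this build was used here. The alternatives that join quantile normalization, pseudocount or left-out libraries with the block, the widths without it and the settings of the pair search were chosen after seeing the data.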
